A study of Mus musculus with 4 samples.

Results

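Platelet RNA was followed in the spleens of 2 lymphoma-bearing mice, on the cell barcodes that carried transcripts of megakaryocytes and platelets. A barcode was a member when it held at least 5 UMIs of Pf4 and Ppbp together and at least 1 UMI of Itga2b, Gp9 or Gp1bb. A UMI is a molecular tag that stands for 1 captured RNA molecule. A member also held no Cd3e, at most 2 UMIs of Cd79a and Cd79b, fewer than 5 UMIs of C1qa, C1qb and C1qc, and under 10% mitochondrial UMIs. Of the 33120 barcodes in the series, 75 met the rule, 13 in the pBIC library and 62 in the pBIC10 library. The rule divides them at 2000 total UMIs, which left 11 and 43 barcodes below the limit, called platelet-like here, and 2 and 19 at or above it.

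The spleens came from 1 female pBIC mouse and 1 female pBIC10 mouse, and the labels give neither their age nor how the pBIC10 genotype alters Il10. Tissue was pressed through a 70 µm strainer and red cells were lysed, and sorting then set each suspension to 20% GFP-positive lymphoma cells and 80% GFP-negative cells, all 7AAD-negative. Each mouse gave a 5′ gene expression library from 17000 to 19000 loaded cells and a T-cell receptor library. With 1 mouse per genotype no difference between the libraries has a replicate check, so every interval below is a 95% interval for counting error only, and no test was made. The sort and the strainer set which cells could enter, and the shares below are shares of what remained.

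Megakaryocytes are very large, polyploid cells of marrow and, in mice, of spleen, and they shed platelets from long cytoplasmic extensions called proplatelets. Platelets have no nucleus and live on RNA, granules and proteins packed by the parent cell, and they adhere, aggregate and release their granules at sites of vessel injury. Platelet factor 4, made from Pf4, and pro-platelet basic protein, made from Ppbp, are CXC chemokines stored in alpha granules. Itga2b encodes the integrin chain that binds fibrinogen, and Gp9 and Gp1bb encode parts of the receptor for von Willebrand factor.

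The values that chose the members are the RNAs of these 5 genes, and the 150 bases before the annotated start of each are shown because the members are defined by them. They are RefSeq sequences on GRCm38.p6, written 5′ to 3′ on the gene's strand, with capitals on 6-base words on either strand. The GATA words searched were AGATAA, the same with a final G (AGATAG), and both with a leading T in place of the leading A (TGATAA, then TGATAG). The ETS words searched were AGGAAG and the same with a leading C in place of the leading A (CGGAAG). Known regulators of megakaryocyte genes include GATA1 and ETS-family factors such as FLI1. Ppbp and Pf4 are neighbours on chromosome 5, with Ppbp at chr5:90768368-90768517 and Pf4 at chr5:90772285-90772434, both on the plus strand. Itga2b lies at chr11:102469884-102470033 and Gp1bb at chr16:18622404-18622553, both on the minus strand, and Gp9 lies at chr6:87777920-87778069 on the plus strand.
Pf4: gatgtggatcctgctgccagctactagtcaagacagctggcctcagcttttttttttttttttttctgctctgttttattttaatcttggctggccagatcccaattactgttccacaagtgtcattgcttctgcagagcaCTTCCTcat
Ppbp: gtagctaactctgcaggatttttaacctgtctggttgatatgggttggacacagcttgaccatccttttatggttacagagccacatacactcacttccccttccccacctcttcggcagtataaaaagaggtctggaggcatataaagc
Itga2b: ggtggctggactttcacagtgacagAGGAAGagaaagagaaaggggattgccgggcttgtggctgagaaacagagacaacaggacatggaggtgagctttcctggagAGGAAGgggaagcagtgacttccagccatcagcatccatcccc
Gp9: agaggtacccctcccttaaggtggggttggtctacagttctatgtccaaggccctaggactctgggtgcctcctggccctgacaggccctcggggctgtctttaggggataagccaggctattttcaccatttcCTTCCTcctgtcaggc
Gp1bb: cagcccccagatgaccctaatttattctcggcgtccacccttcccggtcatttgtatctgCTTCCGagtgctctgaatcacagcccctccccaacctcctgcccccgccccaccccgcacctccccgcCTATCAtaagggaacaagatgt

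The ETS word stood in the stretches of Pf4, Gp9 and Gp1bb and at 2 places in that of Itga2b, and the GATA word stood only in that of Gp1bb among these 5. In the longer windows of 250 bases, 5 of the 11 megakaryocyte and platelet markers with a RefSeq promoter held a GATA word and 7 held an ETS word, and 3 held both. Of all 32851 promoter windows of that length, 26.5% held a GATA word, 39.2% an ETS word and 9.21% both. Among the genes that led in platelet-like over low-UMI barcodes (defined below), 30 had a promoter, with 38 windows. Of these windows 4 held a GATA word, 12 an ETS word and 1 both, each a smaller share than among all windows. The sets overlap, since Pf4, Ppbp, Itga2b, Gp9, Tubb1, Treml1 and Clec1b are in both, and the marker shares rest on 11 windows. The markers with a GATA word were Clec1b, Gp1ba, Gp1bb, Gp5 and Gp6, of which only Clec1b was also a leading gene. No contrast between the sets is read from this. A match is a description of the letters and shows no bound factor.

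The libraries held 18129 barcodes with 166941618 UMIs in pBIC and 14991 barcodes with 147884282 UMIs in pBIC10, with medians of 6235 and 5458 UMIs per barcode. The smallest totals were 500 and 657 UMIs, so barcodes with less RNA were not analysed here. In total 712 barcode sequences occurred in both libraries, and 4 pBIC10 members and no pBIC member were among them. None of the 75 members had a T-cell receptor contig. The rule favours this result, since it asks for no Cd3e, and that limit left out 1 pBIC and 2 pBIC10 barcodes with a contig. Counts of 0 of 13 and 0 of 62 allow shares of up to 23.1% and 4.84%. Doublet scoring called none of the 75 members.

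Members were more frequent in the pBIC10 library. They made up 0.0727% of pBIC barcodes under the mitochondrial limit (13 of 17875, exact binomial interval 0.0387% to 0.124%) and 0.423% of pBIC10 barcodes (62 of 14668, 0.324% to 0.542%), a ratio of 5.81 (3.16 to 11.5). Platelet-like members made up 0.0615% (0.0307% to 0.110%) and 0.293% (0.212% to 0.395%), a ratio of 4.76 (2.42 to 10.2). Members of at least 2000 UMIs made up 0.0112% and 0.130%, a ratio of 11.6 (2.79 to 102.5) that rests on 2 pBIC barcodes. Counted against barcodes with at most 2 UMIs of Cd79a and Cd79b, which takes most B and lymphoma cells out of the denominator, the ratio for all members was 5.52. Whether the 2 spleens differed in platelets held, in capture or in the lowest RNA content admitted cannot be told apart with 1 mouse each. Just outside the limit of 5 UMIs for Pf4 and Ppbp, 2 pBIC and 7 pBIC10 barcodes held 3 UMIs and 0 and 1 held 4, and just inside, 2 and 2 held 5 UMIs and 1 and 6 held 6.

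The markers of the label were present in the members below 2000 UMIs. All 13 megakaryocyte and platelet markers had UMIs in the platelet-like barcodes of each library. Beside the 5 genes of the rule they include Gp1ba, Gp5, Gp6, Itgb3, Clec1b, Tubb1 and Treml1. In pBIC the markers took 1.88% to 7.33% of a barcode's UMIs, with a median of 4.40%. In pBIC10 they took 0.514% to 8.20%, with a median of 2.54%. The ranges overlapped and the pBIC10 library held the barcodes with the lowest shares. The summed marker level was 49.2 per 1000 UMIs in pBIC and 30.5 in pBIC10, against 0.0380 and 0.0350 in low-UMI barcodes. These low-UMI barcodes, 3358 in pBIC and 3350 in pBIC10, had under 2000 UMIs, under 10% mitochondrial UMIs and no Pf4 or Ppbp. Their median totals of 787 and 1019 UMIs lay near the 829 and 911 of the platelet-like members, and they serve below as the background. Only this median was set side by side. The rule sets much of the contrast in marker level, since it asks for 5 of the 13 markers and the background lacks Pf4 and Ppbp by choice. Of the 566 and 1375 marker UMIs, Pf4 gave 168 and 528 and Ppbp 110 and 293. Itga2b, Gp9 and Gp1bb together gave 104 and 210. The level of the markers outside the rule is given in the last section.

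**Figure D1:**
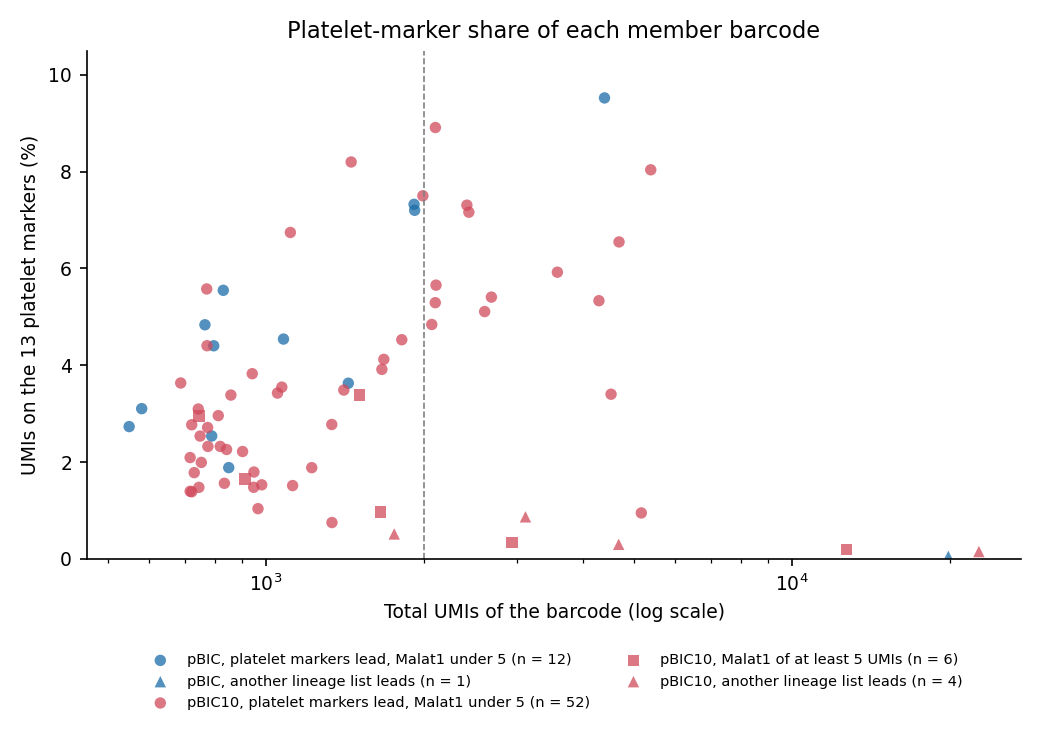
Share of UMIs on the 13 platelet markers (y axis, percent) against total UMIs (x axis, log scale) for each of the 75 member barcodes, coloured by library, with the dashed line at 2000 UMIs. Of the barcodes of at least 2000 UMIs, 15 lie at 0.948% to 9.52%, with 1 barcode at 0.948% and the next at 3.40%. The other 6 lie at 0.868% or less with a Malat1 count of 5 or more, 4 of them with another lineage list ahead.

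Other lineages were thin on the platelet-like barcodes. Neutrophil markers reached 1.04 per 1000 UMIs in pBIC, with 5 of 12 genes detected and 0 to 3 UMIs per barcode, and 3.09 in pBIC10, with 9 of 12 detected and 1 to 8 UMIs per barcode. The low-UMI barcodes held 1.52 and 10.2 neutrophil UMIs per 1000. Ly6g and Cxcr2 were at 0 in the platelet-like barcodes of both libraries. Ly6g was also at 0 in the pBIC10 members of at least 2000 UMIs, which held 4452 neutrophil UMIs, so its absence tells little. Macrophage or monocyte markers stood at 2.44 and 3.18 per 1000 UMIs, against 2.96 and 5.06 in low-UMI barcodes. B-cell markers stood at 1.48 and 1.33 against 3.27 and 2.27. Erythroid markers stood at 1.04 and 1.0 against 4.17 and 7.28, and T-cell markers at 0.435 and 0.533 against 1.92 and 0.850. On the platelet-like barcodes each of these lists lay below the marker sum of the platelet list. Of these 54 barcodes 1 had another list ahead, a pBIC10 barcode of 1752 UMIs with more macrophage or monocyte than platelet UMIs. The rule sets this order in part. It limits Cd3e, Cd79a, Cd79b and the C1q genes, which stand on the T-cell, B-cell and macrophage lists, and asks for 5 genes of the platelet list.

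The data went against the name nucleated for the members of at least 2000 UMIs. Malat1 is a long non-coding RNA that stays in the nucleus, and it was not used by the rule. Of these 21 members, 15 held fewer than 5 Malat1 UMIs and had the platelet list ahead of every other list. Their totals ran from 2065 to 5386 UMIs with a median of 2681, and their Malat1 counts from 0 to 4 with a median of 1. They carried 49 to 433 platelet-marker UMIs. The 49 were on 1 pBIC10 barcode of 5168 UMIs, or 0.948% of its total, and the next lowest share was 3.40%. That barcode held 28.3% ribosomal protein RNA and 12 UMIs of B-cell markers, and it stays in the sums below. These 15, of which 14 are pBIC10 barcodes, are called large nucleus-poor barcodes below, and that class was drawn after the values were seen.

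The other 6 members of at least 2000 UMIs carried little platelet RNA. In 4 of them another lineage list led, and the others were set apart by Malat1 alone. The pBIC member of 19819 UMIs held 198 Malat1 UMIs, 868 UMIs of erythroid markers and 10 of platelet markers. Among pBIC10 members, those of 3112, 4681 and 22655 UMIs held 491, 2019 and 1896 UMIs of neutrophil markers, beside 27, 14 and 34 of platelet markers. The member of 2934 UMIs held 417 Malat1 and 10 platelet-marker UMIs. The member of 12690 UMIs came nearest to a nucleated cell of the lineage. It held 33 Malat1 UMIs, 12 of Gata2, a transcription factor of early megakaryocytes, mast cells and basophils, 9 of Pf4, 6 of Itga2b and none of Ppbp. Its 24 platelet-marker UMIs made up 0.189% of its total, so no member was called a megakaryocyte here.

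By count, the members with the most platelet-marker UMIs held few Malat1 UMIs. The 11 members with at least 5 Malat1 UMIs, 5 of them under 2000 UMIs, held 9 to 51 platelet-marker UMIs, at most 3.39% of their total. The 64 members with fewer held up to 433, or 9.52%. Malat1 took 0.0609% of UMIs in pBIC platelet-like barcodes (7 UMIs, interval 0.0245% to 0.125%), 0.271% in those of pBIC10 (122 UMIs, 0.225% to 0.324%) and 0.0477% in the 14 large nucleus-poor barcodes of pBIC10, where the class itself limits it. Low-UMI barcodes held 0.959% and 0.671%, and T cells, taken as barcodes with at least 3 UMIs of Cd3d, Cd3e and Cd3g, held 0.338% and 0.198%. The platelet-like barcodes thus lay below the low-UMI barcodes of their own library in Malat1, while those of pBIC10 lay above its T cells.

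**Figure D2:**
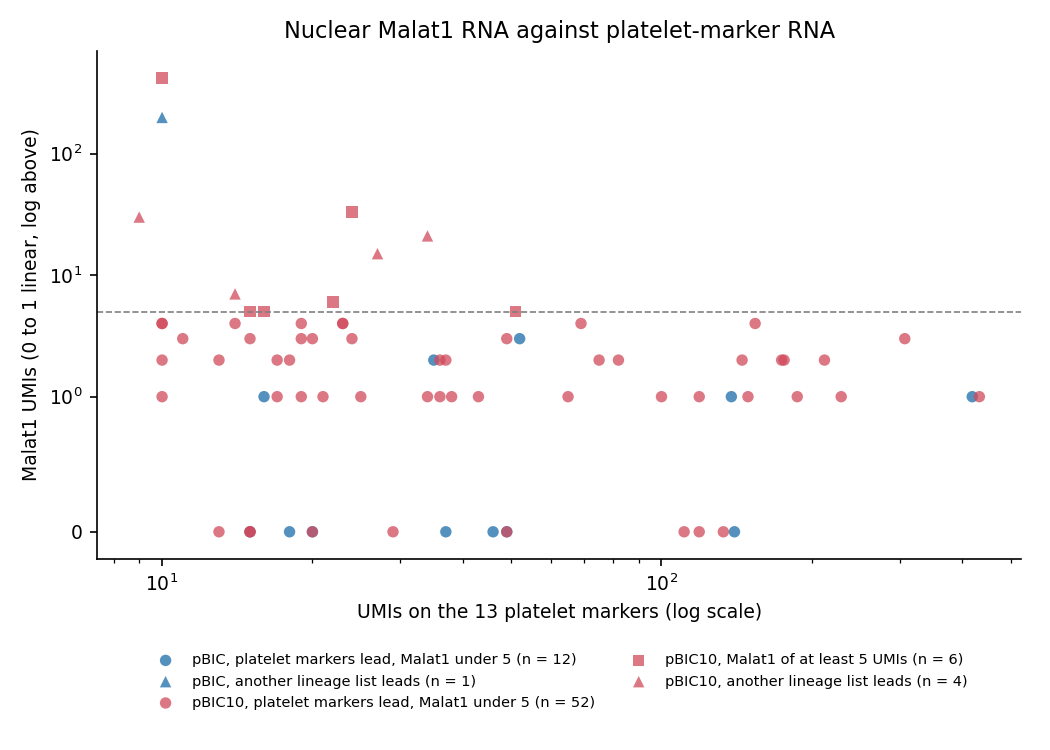
Malat1 UMIs (y axis, linear from 0 to 1 and log above) against UMIs on the 13 platelet markers (x axis, log scale) for each of the 75 members, with the dashed line at 5 Malat1 UMIs. Barcodes above the line stay at 51 platelet-marker UMIs or fewer, and those below reach 433. The line is a count and makes no allowance for total UMIs.

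The platelet-like barcodes carried a broad platelet programme beyond the genes of the rule. A gene was called higher or lower when its summed level (UMIs per 1000000 UMIs, CPM) differed at least 2-fold, the exact interval of the ratio excluded no difference, and the sums together held at least 20 UMIs. Against the low-UMI barcodes of the same library, 335 of 9921 genes were higher (3.38%) and 209 lower (2.11%) in pBIC10, or 5.48% in either direction. In pBIC 256 of 9934 were higher (2.58%) and 56 lower (0.564%), or 3.14% in either direction. Of 9352 genes compared in both libraries, 149 were higher in both, which is 44.5% of the higher genes of pBIC10 and 58.2% of those of pBIC, and 18 were lower in both. The low-UMI barcodes were chosen for lacking Pf4 and Ppbp, so these calls describe what travels with those 2 RNAs.

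Among surface receptors, 7 of the 10 genes compared in both libraries were higher in both. They were Itgb3, Itga6, Clec1b, F2rl2, Cd9, Cd226 and Treml1. Itgb3, the integrin partner of Itga2b, had 29 UMIs or 2523 CPM in pBIC, in 8 of 11 barcodes, and 81 UMIs or 1799 CPM in pBIC10, in 27 of 43, against 28.4 and 16.2 CPM in low-UMI barcodes. Clec1b, the platelet receptor for podoplanin, had 30 and 68 UMIs, or 2610 and 1511 CPM, against 0.638 and 7.69 CPM. Treml1, a receptor kept in alpha granules until activation, had 22 and 34 UMIs, or 1914 and 755 CPM, against 0.319 and 0.53 CPM. F2rl2, the thrombin receptor PAR3 of mouse platelets, had 9 and 26 UMIs. P2ry12, the ADP receptor that clopidogrel blocks, had 1 UMI in each library and could not be read at this depth.

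Alpha granule cargo followed the same pattern, with 7 of 11 genes higher in both libraries and 1 lower. Thbs1, which encodes thrombospondin 1, had 38 UMIs or 3306 CPM in pBIC and 146 UMIs or 3243 CPM in pBIC10. Per barcode it ran from 0 to 9 with a median of 3 in pBIC and from 0 to 44 with a median of 1 in pBIC10, so the 2 summed levels were close although single pBIC10 barcodes held far more. Vwf, the ligand of the Gp1b complex, had 10 and 31 UMIs, or 870 and 689 CPM, against 3.83 and 2.39 CPM in low-UMI barcodes. Clu, F13a1, Srgn, Ecm1 and Tgfb1 were the others. Tgfb1, of which platelets are a major store, had 18 UMIs or 1566 CPM (928 to 2475) in pBIC and 52 UMIs or 1155 CPM (863 to 1515) in pBIC10, against 139 and 134 CPM in low-UMI barcodes and 362 and 318 CPM in macrophages, taken as barcodes with at least 5 UMIs of C1qa, C1qb and C1qc. The lower gene was Ccl5, a chemokine of platelet granules that T and NK cells also make in quantity, at 3132 and 578 CPM against 7807 and 1885 CPM.

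Of 7 eicosanoid enzyme genes 3 were higher in both libraries. Alox12, the platelet lipoxygenase, had 40 and 79 UMIs, or 3480 and 1755 CPM, against 0.638 and 1.86 CPM, and Ptgs1 and Tbxas1, which lead to thromboxane, were the others, from 2 to 10 UMIs each. Of 29 cytoskeletal and proplatelet genes 20 were higher in both. Tubb1, the beta tubulin of the platelet marginal band, had 76 UMIs or 6612 CPM in pBIC, from 0 to 18 per barcode with a median of 6, and 89 UMIs or 1977 CPM in pBIC10, from 0 to 13 with a median of 1. Low-UMI barcodes held no Tubb1 UMI in pBIC and 4 UMIs or 1.06 CPM in pBIC10. Myl9, a myosin light chain, had 73 and 123 UMIs, or 6351 and 2732 CPM, against 5.42 and 4.51 CPM. Tuba4a, Flna, Tln1, Vcl, Fermt3 and Bin2 belonged to the same group.

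**Figure D3:**
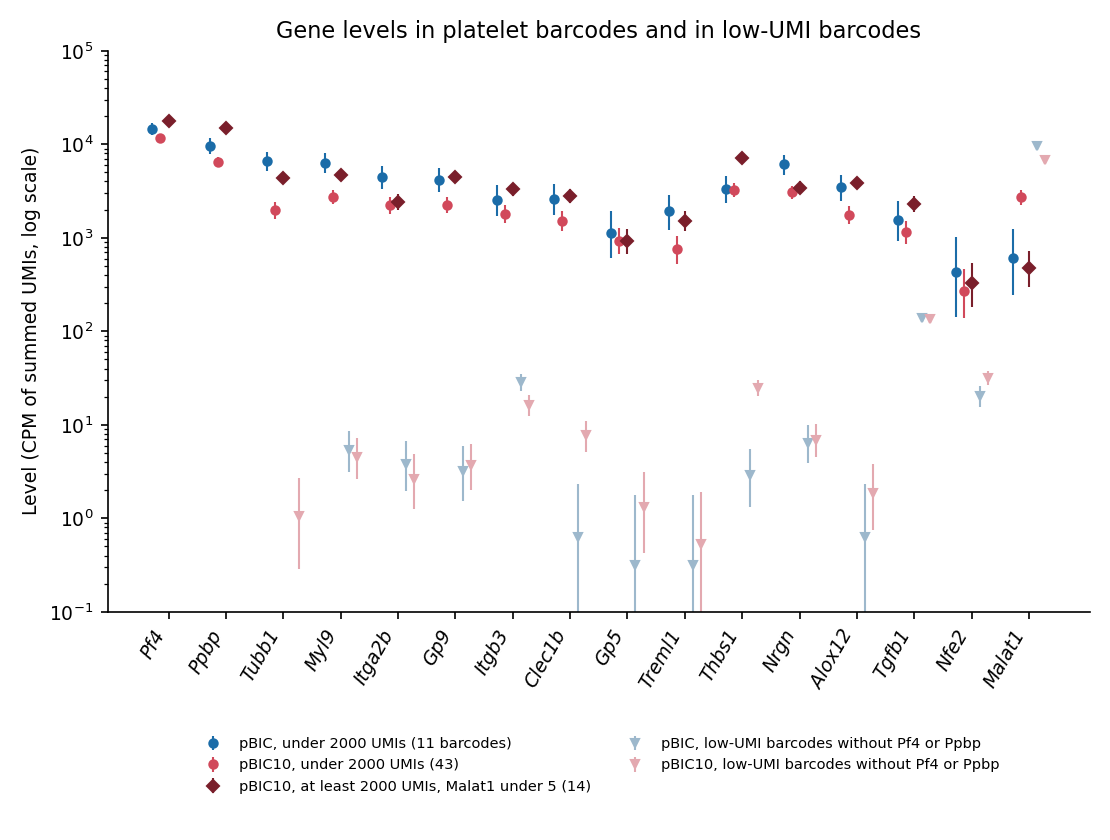
Levels (y axis, CPM of summed UMIs, log scale) of 16 genes in platelet-like barcodes of each library, in the 14 large nucleus-poor barcodes of pBIC10 and in low-UMI barcodes without Pf4 or Ppbp, with bars for the exact Poisson interval and no point where a sum is 0. The platelet genes lie far above the low-UMI barcodes in each library, and Malat1 lies below them.

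Platelet signalling genes were higher in both libraries in 10 of 26 cases. Nrgn, a calmodulin-binding protein abundant in platelet RNA, had 70 and 138 UMIs, or 6090 and 3066 CPM, against 6.38 and 6.9 CPM. Gng11, a G-protein gamma subunit, had 40 and 98 UMIs, or 3480 and 2177 CPM. Plek, Rasgrp2, Rgs10, Rgs18, Rap1b, Bin1, Tagln2 and Prkar2b completed the group. Ctla2a, a gene whose copy Ctla2b is near-identical and may share its reads, had 95 UMIs in all 11 pBIC barcodes and 313 UMIs in 39 of 43 pBIC10 barcodes, or 8265 and 6953 CPM against 126 and 146 CPM.

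Few genes of the nuclear and secretory parts of the programme were called. Of 21 transcription factor genes, Nfe2, which drives proplatelet formation, and Tsc22d1 were higher in both libraries, with 5 and 12 UMIs for Nfe2 and 55 and 89 for Tsc22d1. Gata1, with 3 and 2 UMIs, was called higher in pBIC and not in pBIC10. Slc6a4, the serotonin transporter by which platelets load their dense granules, had 18 UMIs in 6 pBIC barcodes and 13 UMIs in 13 pBIC10 barcodes, and none in low-UMI barcodes of either library. Of 18 genes for granule building and secretion only Stx11 was higher in both and of 35 replication and mitosis genes only Ccnd3, while Mki67 was lower. None of the 4 nuclear RNAs compared was higher, and Malat1 and Xist were lower in both libraries.

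Genes linked to immune-type megakaryocytes were not higher than in low-UMI barcodes. That background carries immune-cell RNA itself, with 2.96 and 5.06 macrophage or monocyte UMIs per 1000 in pBIC and pBIC10. The comparison therefore cannot show that such a programme is absent. None of 33 compared in both libraries was higher or lower in both, and in pBIC10 9 of 35 were lower, among them H2-Aa, Tap1, Il1b, Cxcl2, S100a8 and S100a9. Cd74, the class II invariant chain, stood at 2436 and 2666 CPM against 4384 and 4541 CPM in low-UMI barcodes, and was not called. Il1b had no UMI in pBIC and 1 UMI in pBIC10. Of 25 interferon response genes only Ifitm3, which platelets are known to carry, was higher in both, with 16 and 62 UMIs or 1392 and 1377 CPM. The median log2 difference in pBIC10 was 6.46 for receptors, 3.37 for cargo, 2.26 for the cytoskeleton, 1.22 for signalling, −0.53 for the immune list and −1.67 for nuclear RNA, against 0.75 over all 9921 genes, with genes at 0 in a sum placed at the limit of 3 counts. In pBIC the same medians were 5.93, 4.92, 2.84, 2.06, 0.58 and −1.52 against 2.66 over all genes. Without the limit the median pBIC gene was at 0 in the platelet-like sum, so the value of 2.66 rests on the limit. The lists therefore cannot be ranked against the median gene there. By calls, 10 of 27 signalling and 23 of 29 cytoskeletal genes were higher in pBIC, against 2.58% of all genes. In pBIC10 the limit raised the median over all genes from −1.05 and that of the immune list from −0.98.

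The 14 large nucleus-poor barcodes of pBIC10 held platelet RNA of the same roles. Against low-UMI barcodes, 429 of 9930 genes were higher (4.32%) and 551 lower (5.55%), or 9.87% in either direction. Higher were 16 of 17 receptors, 12 of 18 cargo genes, 25 of 30 cytoskeletal genes and 15 of 28 signalling genes, and 5 of 21 transcription factors (Gata1, Fli1, Nfe2, Tal1 and Tsc22d1). Of 35 immune-type genes 21 were lower and none higher, against the same background with immune-cell RNA.

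Against these large barcodes, the platelet-like ones of the same library had a lower share of platelet RNA. The large ones were chosen for a leading platelet list and low Malat1, which favours this order, and the platelet-like ones were not. Per 1000 UMIs the large barcodes held 54.8 platelet-marker UMIs and the platelet-like ones 30.5. All 19 pBIC10 members of at least 2000 UMIs, without that choice, held 28.6, so the order rests on the choice. In the platelet-like barcodes 35 of 603 genes were higher (5.8%) and 77 lower (12.8%) than in the large nucleus-poor ones. Lower were 6 of 13 receptors, 5 of 12 cargo genes, 10 of 27 cytoskeletal genes and 5 of 13 signalling genes, with median log2 differences of −0.90, −0.67, −0.91 and −0.85 against −0.19 over all genes. Among single genes, Bin2, a platelet BAR-domain protein, differed by −2.02 on the log2 scale (−2.70 to −1.39), Tpm4, a tropomyosin, by −1.44 (−1.85 to −1.04), Plek by −1.31 (−1.70 to −0.93) and Slc6a4 by −1.85 (−2.86 to −0.94). Ppbp, a gene of the rule, stood at 6509 against 14894 CPM. With the same choice applied to the platelet-like barcodes as well, 30 of 565 genes were higher in them and 60 lower.

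Counting per platelet-marker UMI shifts all genes alike and centres the markers on their own sum. On that count 190 of the 603 genes were higher and 5 lower in the platelet-like barcodes. The medians of the receptor, cargo, cytoskeleton and signalling lists came to −0.06, 0.18, −0.07 and −0.01 against 0.66 over all genes. The shift cannot change the order of the lists and the median gene, so this adds nothing to the order in CPM. Bin2, Rab11a and Slc6a4 were among the 5 genes that were lower under that count as well. Tubb2a, another beta tubulin, was higher in CPM, with 63 UMIs in 14 of 43 platelet-like barcodes and 26 UMIs in the large ones. Its log2 difference was 1.31 (0.63 to 2.03) in CPM, and the shift could only raise it. Malat1 was higher too, with 122 UMIs against 22, which the choice of the large nucleus-poor barcodes fixes. Immune genes were higher in 3 of 11 cases in CPM (H2-Eb1, S100a8 and S100a9) and in 8 of 11 per marker UMI. S100a8 and S100a9 are also among the most abundant RNAs of the low-UMI barcodes of this library, at 3591 and 4615 CPM, and the part of free RNA in these values was not tested.

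Set against all 19 pBIC10 members of at least 2000 UMIs, platelet-like barcodes had 121 called genes of 914, 40 higher (4.38%) and 81 lower (8.86%). The neutrophil genes S100a8, S100a9, Wfdc21 and Lcn2 led the lower ones, and 3 of the 19 barcodes carry the neutrophil RNA given above. Without the 4 members whose barcodes occur in both libraries the count was 75. In pBIC, with 2 barcodes of at least 2000 UMIs, 159 of 297 genes were called (26.9% higher, 26.6% lower), and 22 were called without the erythroid barcode of 19819 UMIs. Between the libraries, members of at least 2000 UMIs had 336 called genes of 877 (23.0% higher in pBIC10, 15.3% lower), and 52 without the 6 barcodes set apart above.

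The relation of platelet RNA share to the total was weak in pBIC10. Across the 11 pBIC barcodes the marker share and total UMIs had a Pearson correlation of 0.75 and a Spearman correlation of 0.54, and across the 43 pBIC10 barcodes 0.32 and 0.18. The share of ribosomal protein RNA had Pearson correlations of −0.77 and −0.54 with the total, and Spearman correlations of −0.42 and −0.49. These points share a library and depth, and cells are not replicates, so the values are a description.

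Between the libraries, platelet-like barcodes of pBIC10 had lower Tubb1, Rgs10 and Slc6a4 and higher Malat1. In CPM, 21 of 387 genes were higher in pBIC10 (5.43%) and 38 lower (9.82%). Tubb1 differed by −1.74 on the log2 scale (−2.20 to −1.28), with 1977 against 6612 CPM. Rgs10, a regulator of G-protein signalling, differed by −1.87 (−2.65 to −1.09; 689 against 2523 CPM), Actg1, cytoplasmic gamma actin, by −1.44 (−1.70 to −1.17), Myl9 by −1.22 (−1.65 to −0.78), Tsc22d1 by −1.28 (−1.78 to −0.76) and Treml1 by −1.34 (−2.16 to −0.50). Slc6a4 differed by −2.44 (−3.59 to −1.33). Aldoa, Tagln2, Myl6, Ywhah and Gnas differed by −1.44 to −1.05. Lower were 5 of 25 cytoskeletal genes (Tubb1, Myl9, Tpm1, Parvb and Bin2), 2 of 9 signalling genes, 1 of 9 receptors and 1 of 9 cargo genes, Ccl5. The medians of these lists were −0.72, −0.68, −0.63 and −0.38, against −0.10 over all genes. Per platelet-marker UMI the cytoskeletal list had 2 genes lower, 1 higher and a median of −0.03, against 0.59 over all genes.

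Pf4 and Ppbp, on which the members were chosen, stood at 11729 CPM in pBIC10 against 14616 in pBIC and at 6509 against 9570. Thbs1 differed by −0.03 (−0.55 to 0.53) and Tgfb1 by −0.44 (−1.24 to 0.42), so at this depth neither could be placed on either side.

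The number of calls in each direction depended on the scaling, which shifts all genes alike and turned no call. Platelet markers took 30.5 of 1000 UMIs in pBIC10 and 49.2 in pBIC. Scaled by TMM factors, 100 genes were higher in pBIC10 and 6 lower, and counted per platelet-marker UMI 96 were higher and 6 lower. The median over all genes was −0.10 in CPM, 0.62 with TMM and 0.59 per marker UMI. Per marker UMI the 6 lower genes were Tubb1, Rgs10, Slc6a4, Parvb, Ccl5 and Gsn. For a gene that is itself a marker, the values that follow count it against the other 12 markers. Tubb1 came to −1.16 (−1.62 to −0.70), or 6.92 UMIs per 100 UMIs of the other markers in pBIC10 and 15.5 in pBIC. Rgs10 came to −1.18 (−1.96 to −0.40). Actg1 at −0.75, Myl9 at −0.53 and Tsc22d1 at −0.59 kept the sign but not the call. Pf4, which was not called, went from −0.32 to 0.56 against the other 12 markers.

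**Figure D4:**
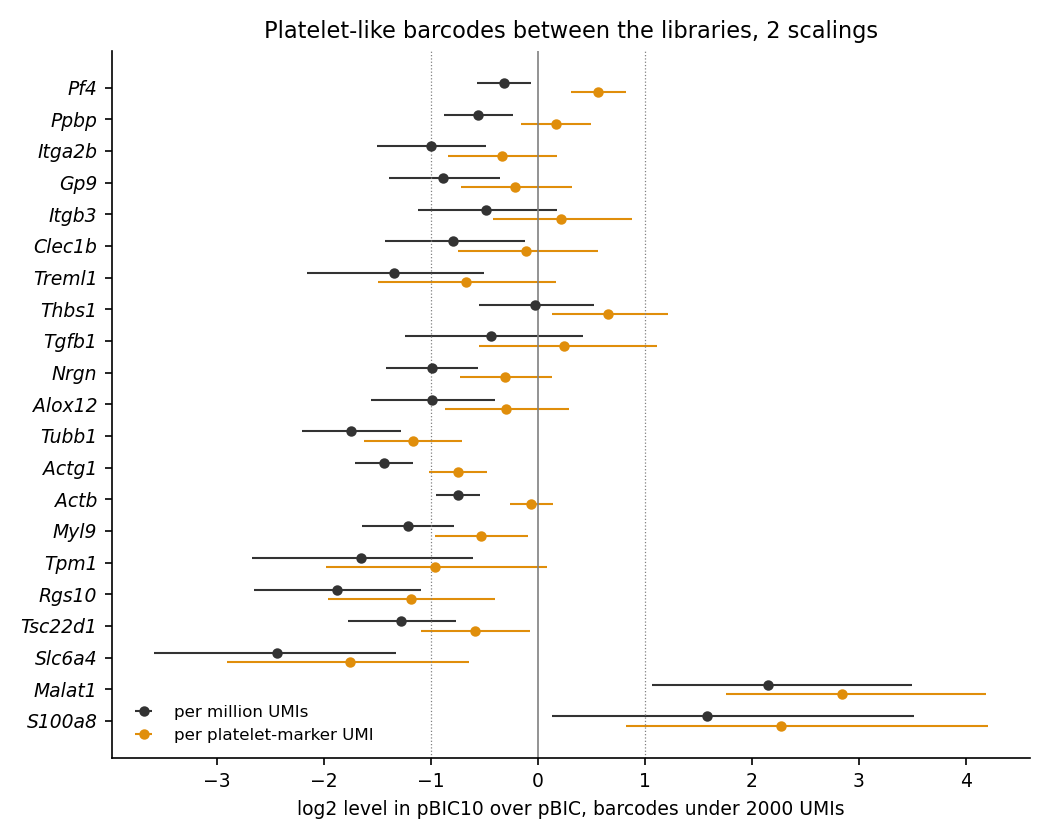
log2 level in pBIC10 over pBIC platelet-like barcodes (x axis) of 21 genes, in CPM (black) and per platelet-marker UMI (orange; a marker is set against the other 12), with bars for the exact counting interval and dotted lines at 2-fold. Tubb1, Rgs10 and Slc6a4 lie left of −1 and Malat1 and S100a8 right of 1 under both counts, and Pf4 changes sides.

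On the other side, Malat1 was higher in pBIC10 platelet-like barcodes by 2.15 on the log2 scale (1.07 to 3.50), with 122 UMIs against 7. Per barcode it ran from 0 to 30 with a median of 2 in pBIC10 and from 0 to 3 with a median of 0 in pBIC, so the ranges overlapped. It was 2.84 per marker UMI, and 1.60 without the 5 barcodes of at least 5 Malat1 UMIs. In the low-UMI barcodes Malat1 went the other way, at −0.51 (−0.54 to −0.49). S100a8 and S100a9 were higher by 1.59 (0.13 to 3.52) and 1.38 (0.07 to 3.06), on 4 and 5 UMIs in pBIC against 47 and 51 in pBIC10, and in the low-UMI barcodes they were higher by 2.68 and 2.72. Over all genes, 657 of 11177 were higher (5.88%) and 1653 lower (14.8%) in pBIC10 low-UMI barcodes. Gapdh was higher by 1.28 (0.07 to 2.78), with many processed copies in the mouse genome that may share its reads, as have Actg1 and Aldoa. Without the 5 barcodes, 20 of 346 genes were higher (5.78%) and 36 lower (10.4%), and Tubb1 stood at −1.70.

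Gm42418 and AY036118, which overlap ribosomal RNA and collect its reads, took 7.06% of UMIs in pBIC platelet-like barcodes and 12.7% in those of pBIC10, against 6.19% and 9.45% in low-UMI barcodes. Mitochondrial RNA took 1.20% and 2.65%, and ribosomal protein RNA 11.9% and 14.2%. These measures of RNA quality moved with the library, and their part in the differences between the libraries was not tested.

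The balance of Pf4 and Ppbp is given by cell type as a description, since the rule used both genes and C1q. Pf4 made up 57.5% of the UMIs of the pair on pBIC members (322 Pf4 and 238 Ppbp UMIs, interval 53.3% to 61.6%) and 58.3% on pBIC10 members (1384 and 989, 56.3% to 60.3%). On pBIC10 macrophages, outside the members, it made up 98.8% (597 and 7, 97.6% to 99.5%). These intervals take UMIs as independent, and a few barcodes carry most macrophage Pf4. Pf4 was found on 96 of 1093 pBIC10 macrophages, and the 8 that held at least 10 Pf4 UMIs carried 413 of the 597 and no Ppbp, with up to 184 on 1 barcode. In pBIC, macrophages held 22 Pf4 UMIs and no Ppbp. On T cells Pf4 was found in 0.235% of pBIC and 1.62% of pBIC10 barcodes, the level to read as background, with median depths of 6404.5 and 7310 UMIs against 8885 for the pBIC10 macrophages, of which 8.78% held Pf4.

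**Figure D5:**
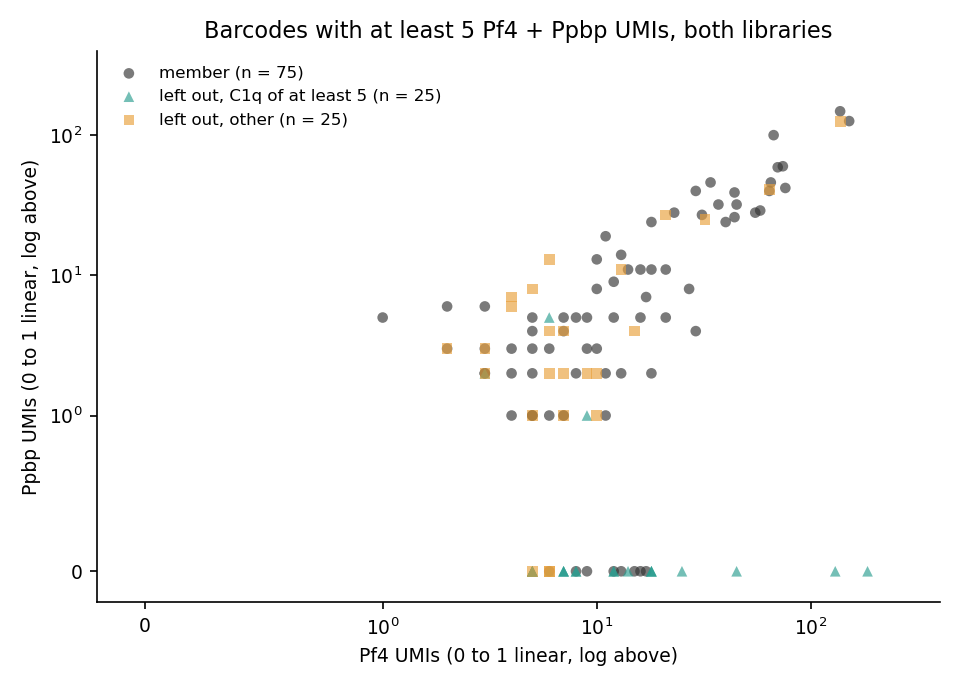
Ppbp UMIs (y axis) against Pf4 UMIs (x axis, both linear from 0 to 1 and log above) for the 125 barcodes of both libraries with at least 5 UMIs of the pair, as 75 members, 25 barcodes left out with at least 5 C1q UMIs and 25 left out on other limits. Members lie along a line of rising Pf4 and Ppbp, and the C1q-bearing barcodes lie mostly at 0 Ppbp with up to 184 Pf4.

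The limits of the rule removed mostly such macrophages in pBIC10 and barcodes with Cd3e in pBIC. At least 5 UMIs of Pf4 and Ppbp were found on 21 pBIC and 104 pBIC10 barcodes. Asking for Itga2b, Gp9 or Gp1bb left 18 and 77, asking for no Cd3e left 13 and 69, and the remaining limits on Cd79, C1q and mitochondrial RNA left 13 and 62. Of the barcodes left out in pBIC10, 23 held at least 5 C1q UMIs, with 540 Pf4 and 7 Ppbp UMIs in all, and 21 of them had no Ppbp. The other 19 held 356 Pf4 and 264 Ppbp UMIs, and 1 of them, a neutrophil by its S100a8, S100a9 and Csf3r, held 138 and 125. The pair on that barcode and on the members stood in a like ratio. Among the 75 members 8 had no Ppbp, all in pBIC10.

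Il10, whose product the study's title traces to the lymphoma B cells, was not found on any member. For a count of 0 the exact interval reaches 103 CPM over the 35712 UMIs of the pBIC members. Over the 137214 UMIs of the pBIC10 members it reaches 26.9 CPM. In T cells Il10 stood at 41.5 and 29.5 CPM, and in B cells, taken as barcodes with at least 5 UMIs of Cd79a and Cd79b, at 31.6 in pBIC and 0.421 in pBIC10 on the same scale. The limit in pBIC therefore lies above the T-cell level, and absence cannot be read there. Il10ra, the ligand-binding chain of the receptor, had no UMI on pBIC members and 6 on pBIC10 members, or 43.7 CPM, against 110 CPM in low-UMI barcodes and 210 CPM in T cells of that library. Il10rb had 0 and 3 UMIs.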

How the data were processed

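The deposited matrices hold raw UMI counts per gene and barcode, which the authors' Cell Ranger run gave (version 3.0.1, GRCm39, per the submitters' processing notes, while the file header names cellranger 5.0.1). The matrices hold called cells only, so empty droplets gave no estimate of free RNA. Member and gene lists were chosen with earlier results of these data known. Counts were summed over barcodes per library and divided by total UMIs (CPM). Ratios carry exact conditional binomial, levels exact Poisson and shares Clopper-Pearson intervals, all at 95%, and PCR and sampling of mice lie outside them. A gene was called at 2-fold with an interval excluding 1 and at least 20 UMIs over both sums. The procedure was tried only on Poisson counts simulated for the summed platelet-like profiles. These had no spread between barcodes or mice, so that spread was not covered. Named genes are list members and up to 10 genes per direction by the interval bound nearest no difference, with at least 50 UMIs, in at least 10% and 5 barcodes of the higher group, at a level no lower than in the library's remaining barcodes, leaving out immunoglobulin, receptor-segment, mitochondrial, ribosomal, haemoglobin and predicted genes. A few further genes and single barcodes were named after their values were seen. Reference barcodes met 1 lineage rule only and held fewer than 5 UMIs of Pf4 and Ppbp, a limit lifted where Pf4 and Ppbp were compared between cell types. Doublets were scored with Scrublet in scanpy 1.11.5 at an expected rate of 0.08. The automatic threshold marked no pBIC barcode, so the pBIC10 threshold of 0.310 was used in both libraries (440 and 367 calls, 2.46% and 2.50%), and called barcodes were kept. TMM factors came from edgeR 4.0.16, with no model fitted. Alternatives covered the rule's limits, denominators, scaling, count minimums and left-out barcodes. Values of 1 marker gene are not reported here.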

Additional observations from a re-analysis of the deposited data

How the results depend on the processing

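The ratio of member shares stayed above 1 in every alternative, from 4.18 to 5.76 for platelet-like barcodes and from 6.09 to 20.7 for those of at least 2000 UMIs. Alternatives to main results kept their value in 81 cases and did not in 35. Some of the 81 could not differ. No member was a Scrublet call or had a contig, so leaving such barcodes out changed no gene sum. The pBIC sums could also not change without shared barcodes or at a mitochondrial limit of 5%, as no pBIC member was shared or above 2.77%. The 35 follow. Genes called between libraries in platelet-like barcodes (59) came to 106 with TMM factors, 102 per marker UMI, 112 with no UMI minimum, 32 with at least 50 UMIs and 97 at 1.5-fold. In barcodes of at least 2000 UMIs (336) they came to 107 with at least 10 Pf4 and Ppbp UMIs, 98 without the highest-UMI barcodes, 52 without barcodes set apart, 814 with no minimum and 143 with at least 50 UMIs. Platelet-like against larger barcodes of pBIC10 (121) gave 195 with the division at 3000 UMIs, 75 without barcodes found in both libraries, 248 with no minimum and 41 with at least 50 UMIs. In pBIC (159) it gave 103 with the division at 1500, 12 with at least 10 Pf4 and Ppbp UMIs, 29 without the highest-UMI barcodes, 22 without barcodes set apart, 311 with no minimum and 66 with at least 50 UMIs. Markers outside the rule per 1000 UMIs moved from 16 to 12.9 (division at 1500) and 19.2 (at least 10 UMIs) in pBIC, and from 7.64 to 6.22 (1500), 9.65 (3000) and 8.81 (at least 10 UMIs) in pBIC10. The nuclear RNA ratio of platelet-like to larger barcodes turned over in pBIC from 0.0777 to 3.02 with at least 10 UMIs, 3.21 without the highest-UMI barcodes and 3.06 without barcodes set apart. In pBIC10 it went from 0.482 to 5.63 (3000), 1.88 (at least 10 UMIs) and 3.70 (without barcodes set apart), and to 0.386 (1500), 0.365 (without shared barcodes), 0.312 (mean over barcodes) and 0.301 (thinned to 500 UMIs). Malat1 itself turned from −1.04 to 2.69, 1.10 and 1.95 on the log2 scale under the same 3 changes in pBIC10. Barcodes set apart are those with at least 5 Malat1 UMIs or another list ahead, a class drawn up once values were known, and marker scaling and leaving out shared barcodes were likewise added after seeing the data. The mean over barcodes gives no count of called genes. With 11 pBIC platelet-like barcodes and 11494 UMIs, genes under about 20 UMIs could not be compared. No paired analysis was possible because each genotype has 1 mouse.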
